A study of Mus musculus with 30 samples.

Results

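The genes described here are the 36 genes of the axonemal dynein arms and of the programme that builds motile cilia, in the SVZ and the striatum of NestinTK mice. They were taken by name, from what is known of their role. The list holds 5 outer arm heavy chains, 9 inner arm heavy chains, 4 intermediate and light chains, 7 cytoplasmic assembly factors, 4 docking genes, the pair Ccdc39 and Ccdc40, and 5 regulators. All 36 had a row among the 53278 genes of the SVZ table and the 50508 genes of the striatum table. Levels are counts scaled to the library total (CPM). Tests took in the genes above 1 CPM in 3 or more libraries of a tissue, which held for 34 of the 36 in the SVZ and 26 in the striatum.

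Motile cilia beat because dynein arms, rows of motors on the outer doublet microtubules of the axoneme, slide one doublet along the next. The arms are assembled in the cytoplasm by dedicated chaperone-like factors, carried into the cilium and anchored through docking complexes, and the transcription factors Foxj1, Rfx2 and Rfx3 switch on their genes. In the walls of the lateral ventricle the multiciliated cells are ependymal cells, which line the ventricle beside the neurogenic SVZ, and the epithelium of the choroid plexus bears motile cilia too.

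RNA was sequenced from both tissues of 15 C57Bl/6 mice, each giving 1 library of SVZ and 1 of striatum; the methods describe adult mice of both sexes, and the labels give neither age nor sex of a mouse. In NestinTK+ mice the second intron of the Nestin gene drives a viral thymidine kinase in neural precursors, so that ganciclovir (GCV), given for 4 weeks by subcutaneous minipump, kills the dividing cells that carry it; NestinTK- mice are littermates without the transgene, and PBS was the vehicle. The ablated group was 5 NestinTK+GCV+ mice (A1 to A5). The controls were 3 NestinTK-GCV+ mice (G1 to G3), which received GCV alone, 3 NestinTK-PBS+ mice (P1 to P3) and 4 NestinTK+PBS+ mice (T1 to T4), numbered in the order in which the samples are listed. Values of a group are given in that order.

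SVZ libraries held 8360810 to 21056005 counts and striatum libraries 2626962 to 4693441 counts; the 5 ablated SVZ libraries held 8360810 to 9595103 counts. The SVZ libraries are labelled as neural precursor cells, but the samples are dissected tissue: Ppp1r1b, a marker of medium spiny neurons, was at 883 to 3107 CPM in the 5 ablated SVZ libraries. A list of genes of dividing cells summed to 8.01 to 31.6 CPM in ablated SVZ and 31.2 to 168 CPM in controls. In 3 SVZ libraries from PBS mice, P1, P2 and T1, Ttr, the defining marker of choroid plexus, took 4.49% to 9.88% of all counts, against at most 0.0789% in the other 12. In the striatum T4 stood apart in the same way, with 0.142% against at most 0.003%. Calls that were lost without P1, P2 and T1 are named as such below; without T4 the striatal counts of called members were the same in all 6 comparisons. In bulk tissue, fewer cells of a type and less RNA per cell cannot be told apart.

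The members were far from equal in level. In SVZ control mice, by mean CPM per kilobase of exon, Foxj1 stood highest at 13.7, followed by Dnali1 at 8.12, Dnal1 at 7.82, Rfx3 at 7.41 and Lrrc6 at 3.81. The heavy chains lay between 0.00954 for Dnah8 and 1.31 for Dnah1. Dnah8 and Dnah17, which are best known from sperm flagella, did not pass the filter in the SVZ. The striatum libraries read only the 3′ ends of transcripts, and there Dnah7c, Dnah12 and Dnah17 were at 0 counts in all 15 libraries, which allows up to 0.639 to 1.14 CPM in a library. Many members varied widely from mouse to mouse within a group in the SVZ. Ccdc40, for example, was at 0 counts in A5 and G1 and at 275 counts in T2.

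**Figure D1:**
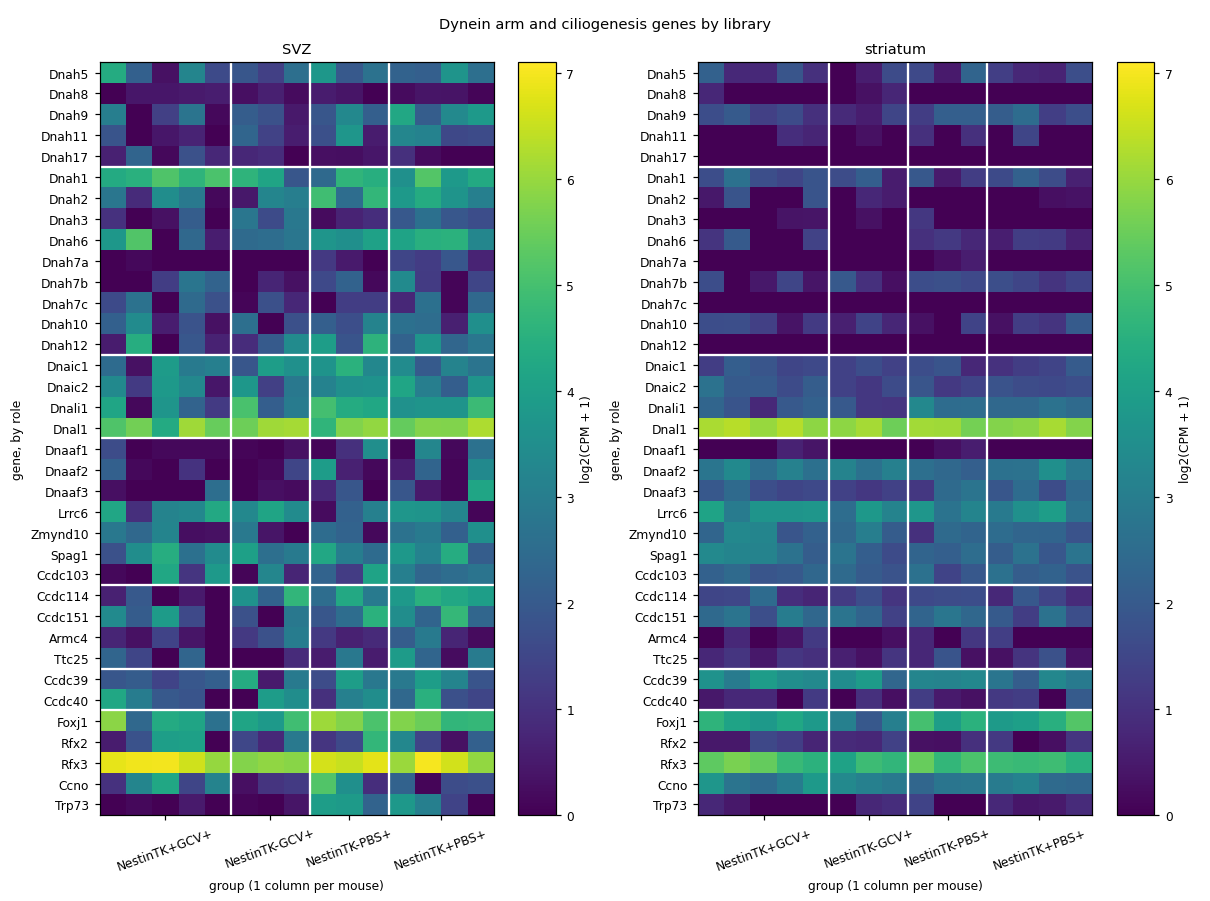
Level of each of the 36 genes (rows, by role from outer arm heavy chains at the top to regulators at the bottom) in each library (columns, by group) as log2(CPM + 1), for SVZ and striatum. Levels are not scaled by gene length; Dnal1, Rfx3 and Foxj1 are the brightest rows in both tissues, and the Ccdc114 and Trp73 rows are dark in the 5 ablated SVZ libraries.

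The RNA of ependymal markers was read from 12 genes that are no members, with Tmem212 as the defining marker. Their summed level in the SVZ was 203, 67, 62.8, 223 and 87.9 CPM in the 5 ablated mice and 288, 141 and 191 CPM in the 3 NestinTK-GCV+ mice. It was 415, 372 and 313 CPM in NestinTK-PBS+ mice and 416, 300.2, 219.6 and 456 CPM in NestinTK+PBS+ mice. Pltp took the largest share of the sum, 23.4% in the SVZ and 35.8% in the striatum. The ablated mice were lower than the 10 controls by 1.40 on the log2 scale (exact permutation test, two-sided, p = 0.00799, adjusted over 4 tests p = 0.032). This test was not run without P1, P2 and T1 together, the libraries rich in Ttr, whose sums were 415, 372 and 416 CPM. Without Pltp the difference was -1.59, while Tmem212 by itself had a log2 fold change of -0.30 ± 0.54 (SE) and was not called. The paper reports that ablation came without an overt loss of ependymal cells compared with control mice. The sums here are of RNA in bulk tissue and do not count cells. Against GCV alone the difference of the sums was -0.84 (exact permutation test, two-sided, p = 0.25, adjusted p = 0.333). In the striatum the corresponding differences were 0.10 (exact permutation p = 0.669, adjusted p = 0.669) and 0.72 (p = 0.0357, the smallest that 5 against 3 mice allows in an exact permutation test; adjusted p = 0.0714).

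The first comparison asked which members differed between ablated SVZ and all controls. Of 34 members tested, 2 were called lower and none higher, where a call needs an unadjusted p no higher than 0.01 and a change of 2-fold or more (edgeR, quasi-likelihood test). They were Ccdc114, which tethers outer arms to the doublets, and Trp73, a transcription factor that acts upstream of Foxj1. Trp73 passed the filter only through PBS mice, so being tested and being called lower are not independent for it. Among all 16375 genes 1.59% were called. No member had an adjusted p (edgeR, Benjamini-Hochberg over all genes) under 0.05, and 3 had an unadjusted p under 0.05. The log2 fold changes of 23 members lay below 0 and of 11 above, with a median of -0.43 beside -0.03 over all genes. With the summed ependymal markers as a covariate the median over the members was 0.16. The sum was itself lower in ablated mice, so this fit cannot fully separate the covariate from the group.

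Ccdc114 had the lowest adjusted p of the 34 members in ablated SVZ against all controls. It lies on chromosome 7 (GRCm38, 45924072 to 45948963, plus strand). Its level was 0.563, 2.96, 0, 0.417 and 0 CPM in the ablated mice and 11.3, 3.72 and 24.5 CPM in NestinTK-GCV+ mice. NestinTK-PBS+ mice had 4.75, 18.3 and 6.48 CPM and NestinTK+PBS+ mice 13.2, 22, 18.3 and 14.8 CPM. Every ablated mouse lay below every control, which holds for 1 of the 34 members and for 0.232% of all genes tested. The log2 fold change was -3.87 ± 1.00 (SE; 5 and 10 mice, edgeR, adjusted p = 0.347), or 14.6-fold lower. It was -3.91 without P1, P2 and T1 and -4.67 with the ependymal markers as a covariate, both still called, and none of the 15 fits that omit a mouse lost the call, with values from -5.61 to -3.55. The exons of Ccdc114 share 103 bases with Gm45442 on the opposite strand, and whether counting used strand is not known.

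The other docking genes lay lower too but passed no threshold. Armc4 had a log2 fold change of -1.90 ± 1.20 (SE), Ttc25 of -0.63 ± 1.45 and Ccdc151 of -0.40 ± 1.04. Their 3 sets of values overlapped the controls. Ccdc39 and Ccdc40, which together form the ruler that spaces the inner arms, had log2 fold changes of -1.41 and -0.11. Ccdc40 was at 17.8, 6.86, 2.98, 2.61 and 0 CPM in ablated mice and 0, 14.2 and 10.1 CPM in NestinTK-GCV+ mice. Its values were 0.981, 7.55 and 10.1 CPM in NestinTK-PBS+ and 4.23, 21.6, 2.35 and 1.82 CPM in NestinTK+PBS+ mice, so that all 4 groups overlapped.

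Trp73 was at or near 0 in the GCV mice of both genotypes. It passed the filter only through PBS mice, so that it was tested because of the mice where it was high. The counts were 0, 1, 0, 4 and 0 in ablated mice and 1, 0 and 4 in mice given GCV alone. In NestinTK-PBS+ mice the counts were 191, 285 and 34, and in NestinTK+PBS+ mice 171, 94, 28 and 0. All 8 GCV mice thus had 0 to 4 counts, while 6 of 7 PBS mice had 28 to 285 and T4 had 0. The log2 fold change against all controls was -5.42 ± 1.83 (SE; edgeR, adjusted p = 0.379), and against GCV alone it was -0.14 ± 1.66, not called. The 3 highest values belonged to P1, P2 and T1, the libraries rich in Ttr, and without them the value against all controls was -3.86 and not called. Of the 12 choroid plexus markers 6 were called lower in the same comparison. The call was also lost when A1, A2, A3, A5, P1, P2, T1 or T2 alone was left out, at log2 fold changes of -5.49 to -5.11. With the ependymal covariate the value was -1.53, with limma-voom -3.46 and with the mouse number series as a covariate -5.01, none of them called.

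Foxj1, the master regulator of motile cilia, was not called. It reached 57.1, 4.26, 19.1, 16.6 and 5.26 CPM in ablated mice and 16.6, 13.2 and 29.2 CPM in NestinTK-GCV+ mice. It reached 65.5, 54.1 and 33 CPM in NestinTK-PBS+ and 52.8, 44.1, 24.5 and 25.3 CPM in NestinTK+PBS+ mice. A1 stood above every control but P1, and the other 4 ablated mice stood below every PBS mouse. The log2 fold change was -0.70 ± 0.52 (SE; edgeR, adjusted p = 0.725). Without A1 it was -1.56 and called, so this 1 mouse decides the call. With the summed ependymal markers as a covariate the log2 fold change was 0.59, not called.

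The remaining regulators and the motors were not called, apart from the values given above. Rfx3, which binds the X-box of ciliary genes, had a log2 fold change of 0.47 ± 0.24 (SE; edgeR, adjusted p = 0.544), Rfx2 of 0.46 ± 1.08 and Ccno, a cyclin-like protein needed for the multiplication of basal bodies, of 0.44 ± 1.07. Outer arm heavy chains ran from -2.43 for Dnah11 to 0.46 for Dnah5, and inner arm heavy chains from -4.50 for Dnah7a to 1.02 for Dnah7c. Dnah5, the outer arm chain with the most counts (mean CPM, not scaled by length), was at 19.7, 3.55, 0.239, 8.44 and 2.03 CPM in ablated and 2.72, 1.53 and 5.03 CPM in NestinTK-GCV+ mice. Dnah5 stood at 12.4, 2.94 and 5.36 CPM in NestinTK-PBS+ and 3.71, 3.45, 11.8 and 5.07 CPM in NestinTK+PBS+ mice. The ablated mice held both its lowest and its highest value.

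Dnah1 was the inner arm chain with the highest mean CPM, per kilobase as well as unscaled. Ablated mice had 19.1, 21.7, 34.1, 23.6 and 32.9 CPM and NestinTK-GCV+ mice 23.5, 16.6 and 2.72 CPM. NestinTK-PBS+ mice had 4.38, 23.8 and 20.9 CPM and NestinTK+PBS+ mice 10.8, 35.8, 13.3 and 18.7 CPM. The log2 fold change against all controls was 0.75 ± 0.45 (SE; edgeR, adjusted p = 0.63) with overlapping groups. Its exons share 551 bases with Gm35823 on the opposite strand.

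All 4 intermediate and light chains had log2 fold changes below 0 and none was called. Dnal1, an outer arm light chain, was at 34.1, 47.6, 19.1, 67.1 and 42.8 CPM in ablated and 45.1, 67.5 and 69.1 CPM in NestinTK-GCV+ mice. It was at 23.9, 53.3 and 60.6 CPM in NestinTK-PBS+ and 42.1, 54.3, 53 and 73.5 CPM in NestinTK+PBS+ mice, with a log2 fold change of -0.22 ± 0.28 (SE). Dnali1, of the inner arms, had -1.22 ± 0.75, and the outer arm intermediate chains Dnaic1 and Dnaic2 had -0.50 and -0.34.

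Among the 7 assembly factors 3 lay below 0 and 4 above, and none was called. The values ran from -2.20 for Dnaaf1 to 0.52 for Lrrc6. Spag1, the assembly factor with the most counts (mean CPM, not scaled by length), had 2.37, 10.2, 20.3, 5.11 and 9.69 CPM in ablated and 15.4, 5.03 and 6.44 CPM in NestinTK-GCV+ mice. The values of Spag1 were 18.1, 7.08 and 4.58 CPM in NestinTK-PBS+ and 12.7, 7.92, 20.0 and 3.25 CPM in NestinTK+PBS+ mice, and its log2 fold change was 0.04 ± 0.58 (SE).

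Beyond the members, 51 further ciliary genes were read as a list. They were mostly further dynein chains, assembly factors, nexin link genes and factors of multiciliation, transcription and centriole multiplication. Few were of intraflagellar transport or the central pair, and none of the radial spokes. In the SVZ 44 were tested, none was called against all controls, 29 lay below 0 and 15 above, and the median was -0.19. Of the 12 ependymal markers 11 lay below 0, with a median of -1.14, and 2 were called lower: Ccdc153 at -1.79 and Rarres2 at -1.40.

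**Figure D2:**
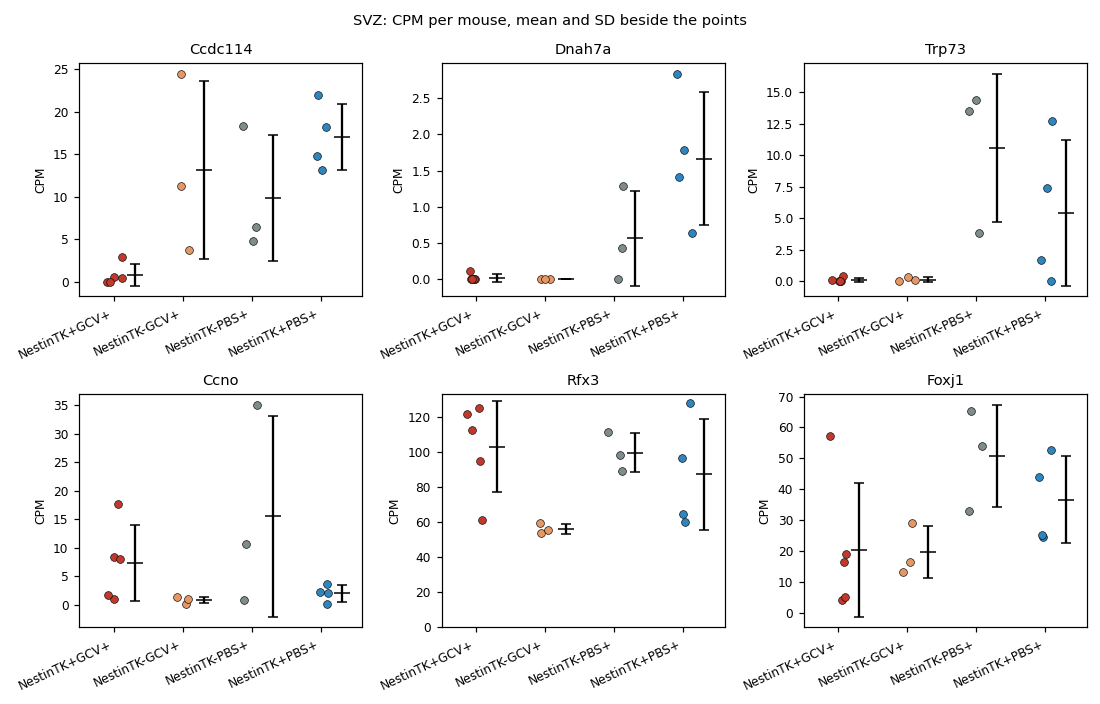
SVZ levels in CPM of 6 genes, with 1 point per mouse and the mean and SD of each group beside the points (5, 3, 3 and 4 mice). Ccdc114 is lower in every ablated mouse than in any control, Trp73 and Dnah7a are at or near 0 in both GCV groups, and Rfx3 lies at 53.8 to 59.3 CPM in the NestinTK-GCV+ group.

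The comparison with GCV alone sets ablated mice against NestinTK-GCV+ mice, which had the same drug without the transgene. In the SVZ 2 of 34 members were called, Ccdc114 lower and Rfx3 higher, where 0.94% of all genes were called; 12 members lay below 0 and 22 above. The median log2 fold change was 0.63, beside 0.03 over all genes, and it moved to -0.05 with limma-voom, so that its direction depends on the tool. No adjusted p was under 0.05 for any gene (edgeR), and 3 members had an unadjusted p under 0.05. Ccdc114 was 13.8-fold lower, at a log2 fold change of -3.79 ± 1.15 (SE; 5 and 3 mice, edgeR, adjusted p = 0.665). Without G3, the control with the highest value, it was -3.04, and without A4 it was -3.60, both past the fold but not the p threshold, and with the ependymal covariate the call was lost as well, at -4.48.

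Rfx3 was higher in ablated mice than in mice given GCV alone. Its level was 113, 122, 125, 94.8 and 61.5 CPM in ablated mice and 53.8, 59.3 and 55.7 CPM in NestinTK-GCV+ mice. The groups did not overlap, which in this direction holds for 1 of the 34 members and for 0.806% of all genes tested. The PBS groups, at 98.2, 89.2 and 112 CPM in NestinTK-PBS+ and 64.6, 128, 96.6 and 60.2 CPM in NestinTK+PBS+ mice, overlapped the ablated group. The log2 fold change was 1.02 ± 0.30 (SE; edgeR, adjusted p = 0.665). It lay between 0.91 and 1.00, and was not called, when A1, A2, A3, G1 or G3 was left out. The call was also lost with limma-voom, at 0.97, with the ependymal covariate, at 0.83, and with no filter on low counts. Foxj1 had 0.20 ± 0.65 in the same comparison, Ccno 3.21 ± 1.42 and Dnah1 0.98 ± 0.68.

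GCV alone was compared with PBS in mice without the transgene. No member of 34 was called in the SVZ, where 1.06% of all genes were called, although 4 members had an unadjusted p under 0.05 (edgeR) and limma-voom called 1 (Trp73) and DESeq2 2 (Ccno and Trp73). The log2 fold changes of 26 members lay below 0 and of 8 above. Their median was -1.22 beside -0.03 over all genes. The unadjusted p under 0.05 belonged to 3 regulators and 1 heavy chain, all lower under GCV: Trp73 at -6.27 ± 2.19 (SE), Ccno at -4.21 ± 1.55, Rfx3 at -0.87 ± 0.33, and Dnah7a, which was at 0 counts in all 3 mice given GCV alone and has its bound given below. Trp73 and Dnah7a passed the filter only through PBS mice, so being tested and being lower under GCV are not independent for them. Beside this, 2 of the 3 NestinTK-PBS+ libraries are those rich in Ttr, and 11 of the 12 ependymal markers lay below 0 in this comparison with none called. Of the 12 choroid plexus markers 8 were called lower, with a median of -10.7. Without P1, P2 and T1 a single NestinTK-PBS+ mouse is left, assumed to vary like the other groups, and Ccno stood at -0.08 and Trp73 at -4.77, neither called. Library numbers run with treatment, the lower ones belonging to GCV mice, so that treatment and order of numbering cannot be told apart. The mouse number series is partly mixed with treatment too, as G1 alone of the NestinTK-GCV+ mice shares the series of the NestinTK-PBS+ mice. All ablated mice are in the other series, while G1, P1, P2, P3 and T3 among the controls are not. The comparison of ablated mice with all controls is thus partly mixed with the series as well.

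Ccno, named here for its interaction term below, was at 1.01, 8.4, 17.7, 1.77 and 8.01 CPM in ablated and 0.22, 1.09 and 1.32 CPM in NestinTK-GCV+ mice. It was at 35.1, 10.7 and 0.894 CPM in NestinTK-PBS+ and 3.71, 0.0784, 2.11 and 2.3 CPM in NestinTK+PBS+ mice. The highest value belonged to P1, one of the libraries rich in Ttr.

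Within NestinTK+ mice, GCV was compared with PBS. In the SVZ 3 of 34 members were called, all lower: Ccdc114, Trp73 and Dnah7a, where 1.19% of all genes were called. Trp73 and Dnah7a passed the filter only through PBS mice, the mice where they were high. Being tested and being called lower are thus not independent for them, and the count of 3 rests in part on this. Of the members 25 lay below 0 and 9 above, with a median of -0.53. Ccdc114 had a log2 fold change of -4.17 ± 1.13 (SE; edgeR, adjusted p = 0.618), Trp73 of -5.42 ± 1.68 and Dnah7a of -5.47 ± 1.77. With the ependymal covariate none of the 3 was called. Without P1, P2 and T1 the Trp73 value was -4.51 and with limma-voom -3.64, neither called. The Dnah7a call was lost with DESeq2, at -5.56, with the mouse number series as a covariate, at -5.16, and with no filter on low counts. Of the 12 choroid plexus markers 8 were called lower in this comparison, with a median of -5.59. The Trp73 call was lost without A1, A3, A5 or T1, at a log2 fold change of -4.52 to -5.13, and the Dnah7a call without A1, A3, A4, A5, T1 or T3, at -5.08 to -5.40.

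Dnah7a, an inner arm heavy chain, had the lowest level per kilobase of the 34 tested members in SVZ controls. Counts were 0, 1, 0, 0 and 0 in ablated and 0, 0 and 0 in NestinTK-GCV+ mice, 17, 9 and 0 in NestinTK-PBS+ and 24, 18, 47 and 8 in NestinTK+PBS+ mice. In the pooled libraries 1 count of ablated mice stood against 97 of NestinTK+PBS+ mice, a ratio of 0.0131 (exact 95% interval 0.000328 to 0.0747, counting error only). Against the 26 counts of NestinTK-PBS+ mice, mice given GCV alone were at least 6.99-fold lower, with 3 counts over the group as the floor. No fold is given between the GCV groups, which were both at or under that floor.

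Dnah7a has the close copies Dnah7b and Dnah7c on the same chromosome, which matters for its counts. In the GENCODE vM21 transcripts the coding sequences were 97.0% identical between Dnah7a and Dnah7b, 96.8% between Dnah7a and Dnah7c and 97.3% between Dnah7b and Dnah7c. Of all stretches of 75 bases in the Dnah7a transcript 27.8% also occurred in a copy, as did 34.3% for Dnah7b and 34.5% for Dnah7c, so reads from these stretches cannot be placed on 1 gene and its level is uncertain to that extent. Against NestinTK+PBS+ mice the log2 fold change in ablated SVZ was -0.49 ± 1.68 (SE) for Dnah7b and 0.41 ± 1.57 for Dnah7c, neither called; their difference from Dnah7a was not tested. The 60 coding bases in 1 exon where the 3 genes differ most, at 16 positions set in capitals, show how the copies differ. They lie at chr1:53635332-53635391 (GRCm38, minus strand, exon 13) in Dnah7a, at chr1:46124395-46124454 (plus strand, exon 13) in Dnah7b and at chr1:46515332-46515391 (plus strand, exon 12) in Dnah7c, and are written 5′ to 3′ on the coding strand.
Dnah7a: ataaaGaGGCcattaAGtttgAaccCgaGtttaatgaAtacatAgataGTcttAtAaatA
Dnah7b: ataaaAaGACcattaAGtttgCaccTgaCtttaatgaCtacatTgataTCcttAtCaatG
Dnah7c: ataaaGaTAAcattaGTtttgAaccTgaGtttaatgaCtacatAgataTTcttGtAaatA

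Between the genotypes under PBS no SVZ member was called, where 0.195% of all genes were called (edgeR), and 1 member had an unadjusted p under 0.05: Ccno, at -2.99 ± 1.31 (SE). The log2 fold changes of 16 members lay below 0 and of 18 above, with a median of 0.09. Ccdc114 had 0.71 ± 1.18 and Trp73 -0.99 ± 1.60.

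The interaction asks whether GCV acted differently with and without the transgene. In the SVZ 2 of 34 members were called, both regulators and both positive, where 0.837% of all genes were called: Ccno at 6.19 ± 1.94 (SE; edgeR, adjusted p = 0.942) and Rfx3 at 1.28 ± 0.42 (adjusted p = 0.942). For Rfx3 the log2 fold change of GCV was 0.41 with the transgene and -0.87 without it, and for Ccno it was 1.98 and -4.21. Without P1, P2 and T1 neither was called, at 2.59 for Ccno and 1.34 for Rfx3. The ependymal covariate and the mouse number series lost both calls, and limma-voom that of Ccno. The Ccno call was lost without A3, G1, G2, G3 or P1, with values from 4.77 to 6.56. The Rfx3 call was lost without A1, A2, A3, G1, G2, G3, P1, P3, T1 or T4, with values from 1.12 to 1.35. Ccdc114 had an interaction of -4.49 ± 1.69, not called, and without A2, the ablated mouse with its highest value, it was -6.23 and called. Of the 44 further ciliary genes tested 1 was called, Drc1 of the nexin link, at 2.35.

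**Figure D3:**
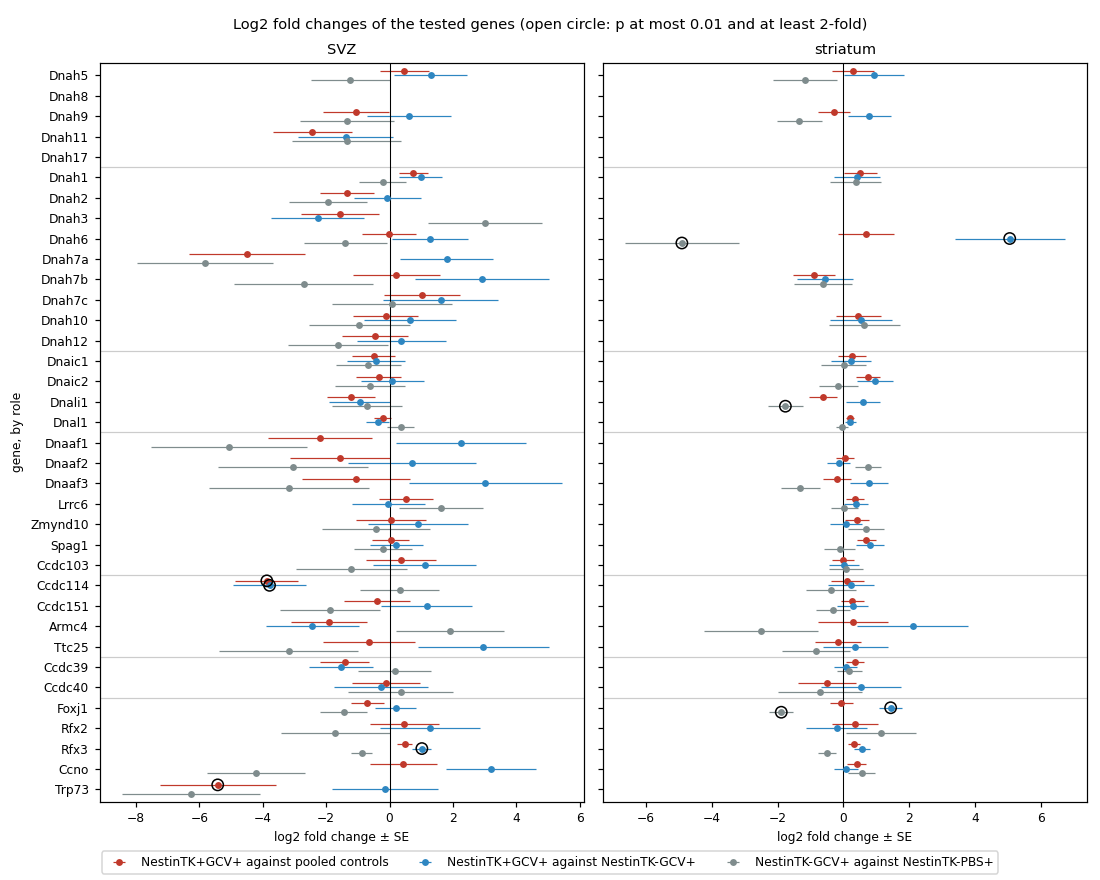
Log2 fold change ± SE of the tested members in 3 comparisons (ablated against all controls in red, ablated against GCV alone in blue, GCV alone against PBS in grey), for SVZ (34 genes) and striatum (26 genes), with an open circle where p is at most 0.01 and the change at least 2-fold. In the SVZ the circles lie at Ccdc114 and Trp73 below 0 and Rfx3 above, and in the striatum Foxj1 and Dnah6 carry circles on both sides of 0 and Dnali1 below it. The fitted values of Dnah6 in the striatum and Dnah7a in the SVZ against or within the NestinTK-GCV+ group, which had 0 counts, are no measure of size.

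In the striatum, no member was called between ablated mice and all controls. Of 26 tested, 0 were called, against 0.694% of all 15419 genes, and 1 had an unadjusted p under 0.05 (edgeR): Spag1, at 0.70 ± 0.29 (SE). DESeq2, limma-voom and the fits with a mouse left out called none either. The log2 fold changes of 8 members lay below 0 and of 18 above, with a median of 0.28 and a range from -0.90 to 0.74. Ccdc114, the gene called in the SVZ, was at 1.82, 1.87, 4.57, 0.89 and 0.65 CPM in ablated mice. Its control values were 1.33, 2.18 and 1.14 CPM in NestinTK-GCV+, 1.94, 2.13 and 2.18 CPM in NestinTK-PBS+ and 0.749, 2.88, 1.73 and 0.843 CPM in NestinTK+PBS+ mice, and its log2 fold change was 0.12 ± 0.50. Of the 41 further ciliary genes tested none was called, and 14 lay below 0.

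Compared with NestinTK-PBS+ mice, NestinTK-GCV+ mice had 3 of 26 members called lower, Foxj1, Dnali1 and Dnah6, and none higher, where 2.46% of all genes were called. Dnah6 passed the filter only through mice outside the NestinTK-GCV+ group, which had 0 counts. Being tested and being called lower are thus not independent for it, and the count of 3 rests in part on this. The log2 fold changes of 16 members lay below 0 and of 10 above, with a median of -0.24. As in the SVZ, G1 is the only mouse given GCV alone in the mouse number series of the NestinTK-PBS+ mice. In the main edgeR fits Foxj1 was the only member with an adjusted p under 0.05, in any of the 6 comparisons of either tissue. Some alternative fits put an adjusted p under 0.05 in the SVZ, for Ccdc114 and Trp73 against all controls and Ccdc114 within NestinTK+ mice. Some did so in the striatum for Dnali1 under GCV alone, while other fits left each of these far above it.

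Foxj1 in the striatum was at 23.6, 16.5, 12.9, 17.8 and 13.3 CPM in ablated and 7.46, 2.9 and 7.29 CPM in NestinTK-GCV+ mice. It was at 31, 14.5 and 22.3 CPM in NestinTK-PBS+ and 13.7, 15.1, 21.1 and 35.7 CPM in NestinTK+PBS+ mice. The 3 mice given GCV alone lay below all 12 others, which holds for 1 of the 26 members and for 2.33% of all genes tested. The share of members is thus near that of all genes. Against NestinTK-PBS+ mice it was 3.7-fold lower under GCV, a log2 fold change of -1.89 ± 0.37 (SE; 3 and 3 mice, edgeR, adjusted p = 0.0141), and this call held in all 15 fits that omit a mouse. The ependymal markers moved with it. Their summed level was 32, 28.3 and 31.2 CPM in NestinTK-GCV+ and 60.8, 56.7 and 63.6 CPM in NestinTK-PBS+ mice, 61, 44.2, 44.2, 64.4 and 41.9 CPM in ablated and 43.7, 48.6, 55.7 and 69.2 CPM in NestinTK+PBS+ mice. All 8 tested markers lay below 0 under GCV alone, and 2 were called, Ccdc153 at -2.14 and Rarres2 at -1.77. With the summed markers as a covariate the Foxj1 value was -0.38, not called. All 3 NestinTK-GCV+ mice had lower sums than all 12 others, so the covariate runs with the group and this fit cannot separate them. The same limit holds for the other striatal fits with this covariate that involve the NestinTK-GCV+ group.

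Dnali1, the light chain of the inner arms, was at 4, 2.62, 0.761, 2.97 and 3.57 CPM in ablated and 2.93, 1.21 and 1.14 CPM in NestinTK-GCV+ mice. NestinTK-PBS+ mice had 8.96, 4.69 and 4.85 CPM and NestinTK+PBS+ mice 4.24, 4.32, 5.39 and 4.5 CPM. All 8 GCV mice lay below all 7 PBS mice, which holds for 1 of the 26 members and for 0.0389% of all genes tested; the split was noticed after the values were seen. The log2 fold change of GCV was -1.76 ± 0.53 (SE; edgeR, adjusted p = 0.0813) without the transgene and -0.76 ± 0.43, not called, with it. The call was lost without G2, G3 or P1, at -1.41 to -1.56, and with the ependymal covariate the value was -1.26, also not called. Nor was it called without P1, P2 and T1, at -1.42, or with the mouse number series as a covariate, at -1.36.

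Dnah6, an inner arm heavy chain, rested on few counts and passed the filter only through mice outside the NestinTK-GCV+ group. It had 3, 8, 0, 0 and 5 counts in ablated and 0, 0 and 0 counts in NestinTK-GCV+ mice, 4, 6 and 3 counts in NestinTK-PBS+ and 2, 4, 6 and 2 counts in NestinTK+PBS+ mice. With 3 counts over the group as the floor, mice given GCV alone were at least 4.11-fold lower than NestinTK-PBS+ mice and ablated mice at least 4.52-fold higher than mice given GCV alone. The edgeR adjusted p was 0.142 for the first difference and an adjusted p = 0.0999 belonged to the second. Leaving out 1 mouse lost the first call in 11 of 15 fits, all but those without A2, A3, A4 or T4, and the second without A2, A5, G1, G2 or G3. Limma-voom and leaving out P1, P2 and T1 lost both calls, and the ependymal covariate and the mouse number series lost the first.

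Ablated mice had higher striatal Foxj1 than mice given GCV alone. In this comparison 2 of 26 members were called, Foxj1 and Dnah6, both higher, where 2.1% of all genes were called; 3 members lay below 0 and 23 above, with a median of 0.40. Foxj1 had a log2 fold change of 1.44 ± 0.35 (SE; 5 and 3 mice, edgeR, adjusted p = 0.0246), or 2.71-fold. All 8 tested ependymal markers lay above 0 here as well, Ccdc153 at 1.72 and Rarres2 at 1.65 being called, and with their sum as a covariate Foxj1 had 0.31, not called. This comparison and that of GCV alone with PBS share the 3 NestinTK-GCV+ mice. Dnah6 passed the filter only through mice outside that group, so the count of 2 rests in part on this. Of the 41 further ciliary genes 1 was called, E2f4, a factor of the multiciliation programme and of the cell cycle, at 1.45.

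Within NestinTK+ mice and between the genotypes under PBS no striatal member was called, where 1.35% and 0.83% of all genes were called, and no member had an unadjusted p under 0.05 in either (edgeR). DESeq2 and limma-voom also called none in both. The median log2 fold change was 0.24 in the first and -0.03 in the second. Foxj1 had -0.38 ± 0.28 (SE) and -0.07 ± 0.31.

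The interaction in the striatum was called for 1 of 26 members, Foxj1, or 3.85%, where 3.28% of all genes were called, so the share is near the background. Its value was 1.51 ± 0.47 (SE; edgeR, adjusted p = 0.109), from a log2 fold change of GCV of -0.38 with the transgene and -1.89 without it. It was not called without G2, at 1.18, without P1, at 1.23, without the 3 mice rich in Ttr in the SVZ, at 1.35, or with the ependymal covariate, at 0.19. Rfx3 had 0.88 ± 0.35, not called.

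**Figure D4:**
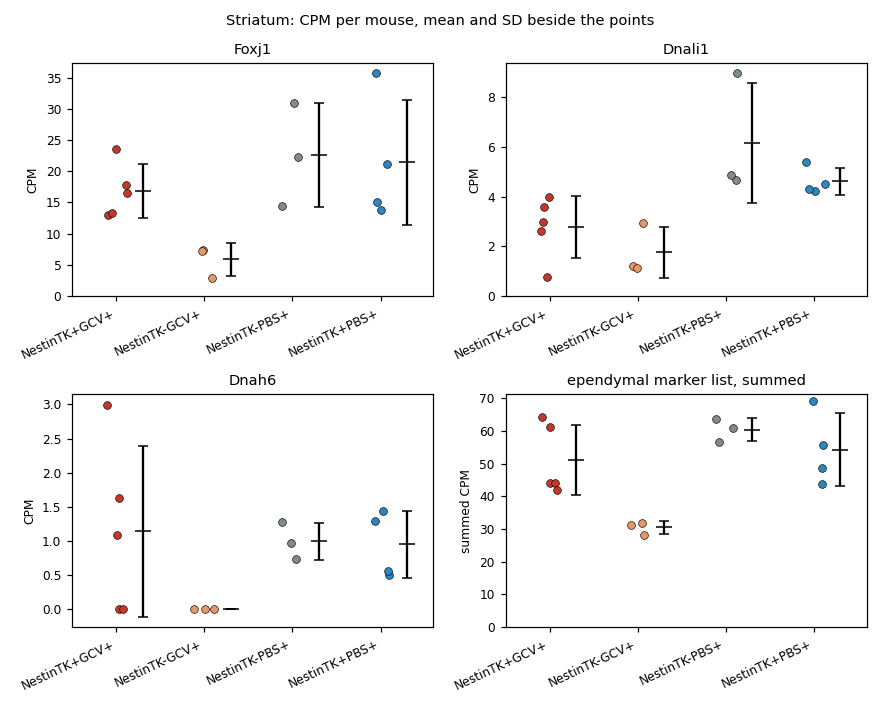
Striatum levels of Foxj1, Dnali1 and Dnah6 in CPM and the summed CPM of the ependymal marker list, with 1 point per mouse and the mean and SD of each group beside the points. The 3 NestinTK-GCV+ mice lie lowest for Foxj1, at 2.90 to 7.46 CPM, and for the marker list, at 28.3 to 32.0 CPM.

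Of the members with the highest striatal mean CPM in each role, none of those below was called in any comparison. Rfx3 was at 39.6, 49.8, 41.9, 26.7 and 22.4 CPM in ablated, 16, 28.3 and 24.6 CPM in NestinTK-GCV+, 43.1, 24.9 and 33 CPM in NestinTK-PBS+ and 28.2, 27, 28.9 and 21.9 CPM in NestinTK+PBS+ mice. Dnal1 was at 73, 79.4, 63.2, 78.3 and 58.8 CPM, 58.8, 69.4 and 45.5 CPM, 68.1, 66.9 and 48 CPM and 53.9, 57.2, 71.2 and 53.7 CPM in the same order of groups. For Lrrc6, an assembly factor, the values were 16.4, 6.74, 11.8, 11.9 and 12.3 CPM, 4.79, 12.8 and 7.97 CPM, 12.4, 5.54 and 8.25 CPM and 6.49, 10.8, 14.5 and 5.34 CPM. These 3 genes had log2 fold changes of 0.33, 0.20 and 0.36 against all controls, and their groups overlapped. Ccdc39 ran from 3.24 to 14.1 CPM and Ccdc151 from 1.44 to 6.82 CPM over the 15 libraries. The heavy chains Dnah9 and Dnah1 ran from 0.483 to 4.68 CPM and from 0.426 to 5.24 CPM.

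Promoter sequences were at hand for 29 of the 36 members in RefSeq (GRCm38.p6), from 250 bases before to 50 after the start site. The X-box, the motif bound by RFX factors, occurred on either strand in 6 of their 30 promoters (20.0%) and in 2.72% of all 32851 promoters: in Ccdc151, Dnaaf2, Dnaaf3, Dnah12, Dnali1 and Zmynd10. The forkhead motif TGTTTAC, on either strand, occurred in 1 of the 30 (Dnah17, 3.33%) and in 3.65% of all. Of the called members with a promoter there, Dnali1 held an X-box, and Ccdc114, Trp73, Dnah7a, Rfx3, Ccno and Dnah6 held neither motif in this window; Foxj1 was not searched. Matches are a description of letters and not of binding. The 3 members below show the motif in capitals with its flanks, on the strand of the gene, at chr4:125065644-125065673 (minus strand) for Dnali1, chr9:22002635-22002698 (minus strand) for Ccdc151 and chr12:69198430-69198476 (minus strand) for Dnaaf2.
Dnali1: gaggagggGTTTCCATGGTGATcgcaaaca
Ccdc151: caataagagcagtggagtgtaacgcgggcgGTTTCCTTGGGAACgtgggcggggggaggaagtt
Dnaaf2: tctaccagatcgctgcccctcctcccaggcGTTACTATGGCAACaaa
In the SVZ, against all controls, these 3 genes had log2 fold changes of -1.22, -0.40 and -1.56, and none was called.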

How the data were processed

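The values deposited by the authors were raw counts per gene, not normalized, in 1 table a tissue. Per the labels and the study's methods, the SVZ kit was SMART-Seq v4 (10 cycles), which amplifies whole transcripts, and the striatum kit QuantSeq 3′ FWD; reads were trimmed with Trimmomatic (0.36 in the submitters' processing notes), aligned with STAR 2.5.3a to mm10 and counted with featureCounts. The strand setting is not given in the sources used here.

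Each tissue was fitted apart in edgeR 4.0.16 (R 4.3.3; quasi-likelihood, TMM; more than 1 CPM in at least 3 libraries), once as ablated against pooled controls and once with 4 groups for 5 contrasts. Genes were called at p of at most 0.01 and at least 2-fold, and p-values were adjusted by Benjamini-Hochberg over every tested gene. Ependymal marker sums were compared by exact permutation (scipy 1.17.1). The fits were run on simulated data with known changes as a check of the code. The common coefficient of variation between mice, as estimated by edgeR, was 0.939 in the SVZ and 0.251 in the striatum. An SVZ gene that was not called may therefore still differ. P-values measure the spread between mice. Named were the members called in any contrast, the member with the highest mean CPM in each role, and Foxj1; values of others accompany them. Members and lists were chosen with earlier results of these data known. Alternatives were DESeq2 1.42.0, limma-voom 3.58.1, DESeq2 size factors, 2 other filters, 2 covariates, leaving out each mouse or the 3 mice rich in Ttr, and an adjusted threshold of 0.05. Coordinates are from GENCODE vM21 (GRCm38); the copies of Dnah7a were aligned with MAFFT 7.526. No pair of replicates agreed within sampling noise (chi-square per degree of freedom at least 4.08). The labels give no sex, litter or batch.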

Additional observations from a re-analysis of the deposited data

Results flagged for a closer look

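Dixon's criterion has a nominal rate of about 1 in 20 for independent, normally distributed values. CPM values, some near 0, of genes from shared libraries are not such values, so the flags cannot be weighed against this rate. Among 42 groups of named members examined, each of 4 or 5 mice, 6 single libraries stood apart from their group by the criterion. In ablated SVZ these were A2 for Ccdc114, at 2.96 CPM, and for Dnah7a, at 0.118 CPM (1 count, the other 4 being at 0), A1 for Foxj1, at 57.1 CPM, and A4 for Trp73, at 0.417 CPM (4 counts). In NestinTK+PBS+ SVZ it was T2 for Ccdc40, at 21.6 CPM, and in ablated striatum A2 for Dnah1, at 5.24 CPM.

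The effect of GCV differed between mice with and without the transgene, by the interaction term at an unadjusted p no higher than 0.01, for Ccno (6.19 on the log2 scale) and Rfx3 (1.28) in the SVZ and for Foxj1 (1.51) in the striatum. The striatal call is 1 of 26 members (3.85%), near the 3.28% of all genes, and the SVZ calls are 2 of 34 (5.88%) beside 0.837%. None of the 3 had an adjusted p under 0.05 (edgeR; the smallest was 0.109, for Foxj1).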

How the results depend on the processing

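No paired analysis was possible because each mouse belongs to 1 group. The 2 calls in ablated SVZ against all controls became 1 with limma-voom, without the 3 mice rich in Ttr, with the ependymal covariate and with the mouse number series as a covariate, and 0 at an adjusted p under 0.05. Against GCV alone the 2 SVZ calls became 1 with no filter on low counts and 0 with the ependymal covariate or the adjusted threshold. The 3 calls within NestinTK+ mice became 1 without the 3 mice and 0 with the ependymal covariate or the adjusted threshold, and the 2 of the interaction became 0 under those 3 settings and with the mouse number series. GCV alone against PBS, with 0 SVZ calls, had 2 with DESeq2, with no filter and with the ependymal covariate, and 1 with limma-voom. In the striatum, ablated mice against GCV alone, with 2 calls, had 1 with the adjusted threshold, limma-voom, filterByExpr, the ependymal covariate or without the 3 mice. GCV alone against PBS, with 3, had 1 with the adjusted threshold, the mouse number series or without the 3 mice and 0 with the ependymal covariate, and the interaction, with 1, had 0 with the adjusted threshold, the ependymal covariate or without the 3 mice. The causes were not tested, except that without the 3 mice fewer samples remain.

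With each mouse left out, the SVZ counts of calls ran from 1 to 2 against all controls, 0 to 2 against GCV alone, 0 to 3 for GCV alone, 1 to 3 within NestinTK+ mice and 0 to 2 for the interaction; in the striatum they ran from 1 to 2 against GCV alone, 1 to 3 for GCV alone and 0 to 2 for the interaction, and were 0 elsewhere. The ependymal marker difference ran from -1.66 to -1.20 and from -1.09 to -0.57 in the SVZ and from 0.014 to 0.169 and from 0.635 to 0.79 in the striatum; with 4 against 3 or 5 against 2 mice the last cannot pass the threshold. No called value of a member changed sign under any alternative run. In the striatum 10 members were too low to test; the part of depth in this was not tested.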

Other observations

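The summed level of all 36 members in the SVZ was 372 to 495 CPM in the 7 PBS mice and 221 to 378 CPM in the 8 GCV mice of both genotypes, with A1 as the highest of the latter. In the striatum the 3 NestinTK-GCV+ mice had 131 to 177 CPM and the 5 ablated mice 177 to 237 CPM, with G2 slightly above A5. The 7 PBS mice, at 162 to 220 CPM, overlapped both groups. A few members weigh heavily in these sums: in A1, Dnal1 and Rfx3 held 73 and 39.6 of 235 CPM. Differences between the sums were not tested in either tissue.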
